A study of Mus musculus with 8 samples.

Results

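The genes described here are *Parp9*, *Parp10*, *Parp11*, *Parp12*, *Parp14* and *Dtx3l*. They are members of the poly(ADP-ribose) polymerase (PARP) family known as interferon-stimulated genes, not necessarily all of them, and the ubiquitin ligase gene that partners with *Parp9*. They were chosen by their symbols, 6 of the 22520 genes and assembled transcripts for which bulk RNA-seq values were deposited, and each symbol matched 1 row. Wild-type mouse CD8+ T cells from spleen received anti-CD3 and anti-CD28 antibodies with IL-2 over 6 days, a culture that drives cells toward exhaustion. From day 3, one group of cultures contained 40 µM diisopropylamine dichloroacetate (DADA), an inhibitor of pyruvate dehydrogenase kinases, and the control group contained DMSO, its solvent. Each group had 4 libraries, and the comparison asks how DADA changed the transcript levels of these cells. No gene was altered, although the labels carry the genotype tags "model" (DADA) and "control" (DMSO), and the strain and age of the mice for these libraries are not given in the labels. The series calls the libraries biological replicates without saying which came from separate mice, so the p-values measure the spread between these libraries, part of which may be technical.

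PARP enzymes take ADP-ribose from NAD and attach it to proteins or nucleic acids. PARP10, PARP11, PARP12 and PARP14 attach single ADP-ribose units, whereas PARP9 binds ADP-ribose through its macrodomains and works as a complex with the E3 ubiquitin ligase DTX3L. Interferons bind receptors that activate JAK kinases, and transcription factors, STAT2 and IRF9 among them, then switch on genes that carry an interferon-stimulated response element (ISRE), the group to which these PARP genes are commonly assigned.

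The deposited values are FPKM, fragments scaled by transcript length and by the mapped fragments of the library, so levels of different genes are on a scale corrected for length. From the steps between low values, the libraries were estimated to hold between 13670000 and 18700000 mapped fragments. The search covered a fixed range of depths, and a depth above it could not be returned. Correlations between libraries across genes were at least 0.993 within a group and at most 0.961 between groups, and no library was left out. All 7 listed markers of CD8 T cells were present, with summed levels of 1220 to 1240 FPKM with DMSO and 1470 to 1530 FPKM with DADA. All 7 were called higher, beside 30.9% of all genes tested. *Cd3g* overlapped between the groups (log2 fold change 0.08, limma, adjusted p = 0.0376). Its call was lost in 8 alternatives, among them quantile normalization (adjusted p = 0.317) and leaving out DADA 1, 2 or 4 or DMSO 1 or 3 (adjusted p = 0.0735 to 0.106). Of 10 myeloid and dendritic cell markers, none reached 1 FPKM and *Csf1r*, *Adgre1* and *Clec9a* were listed at 0 in all 8 libraries, while their sum was 0.0421 to 0.138 FPKM with DMSO and 0.168 to 0.315 FPKM with DADA. The sums of the 3 CD4 T cell, 4 NK cell and 6 erythroid markers stayed at or under 1.05 FPKM in each library, and of the 5 B cell markers only *Cd79b* passed 1 FPKM (3.09 ± 0.469 and 2.69 ± 0.338 FPKM with DMSO and DADA, SD, n = 4).

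All 6 genes were higher in DADA-treated CD8+ T cells. Summed over the 6 genes, the level was 51.0 ± 1.34 FPKM in control cells and 139.9 ± 2.0 FPKM in treated cells (SD, n = 4 each), 2.75 times as high. In bulk RNA, more cells that express these genes and more RNA per cell cannot be told apart. The increase of the single genes ran from 1.99-fold for *Parp11* to 3.19-fold for *Parp14*, as the ratio of mean FPKM. In each of the 6 genes, the 4 values with DADA lay above the 4 values with DMSO. Groups did not overlap in this direction for 28.4% of the 10666 genes tested, those at 1 FPKM or more in 4 or more libraries. On the log2(FPKM + 1) scale, fitted with limma over these 10666 genes, 6 of the 6 were called higher (Benjamini-Hochberg adjusted p-value under 0.05), against 30.9% of all genes tested. Their median log2 fold change was 1.26, beside -0.02 over all genes tested, and each lay above at least 95.6% of these genes. *Parp12* met the filter on low values in 6 libraries, only 2 of which were DMSO libraries, and the other 5 genes met it in all 8.

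**Figure D1:**
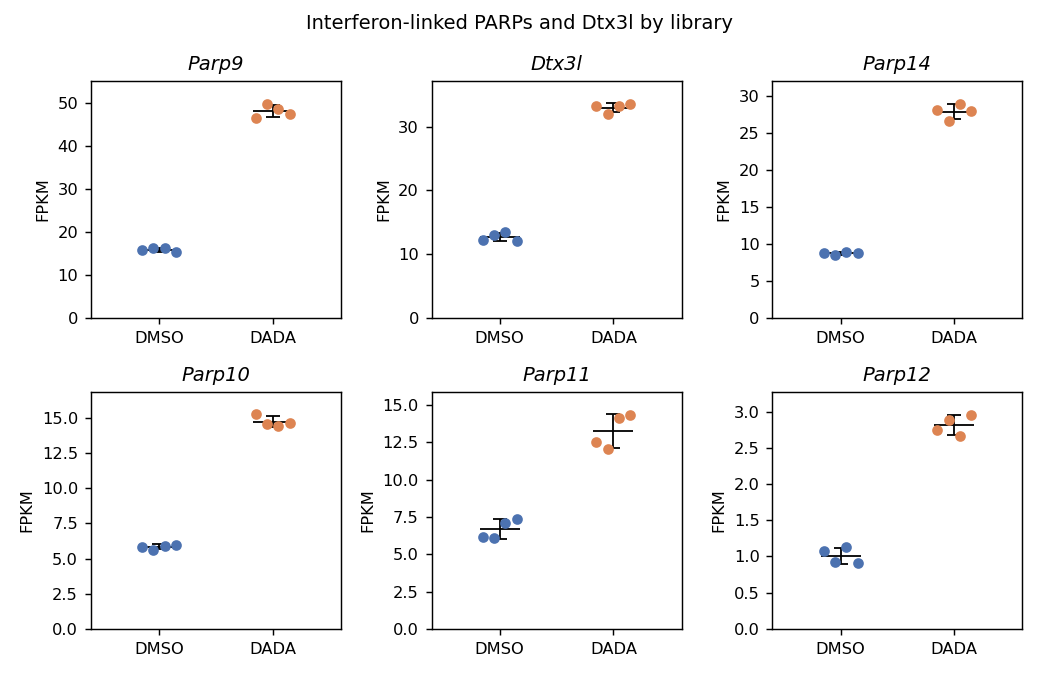
FPKM of the 6 genes (vertical axes, each from 0) in the 4 DMSO (blue) and 4 DADA (orange) libraries, in the order of their replicate numbers from left to right; black bars give the mean and SD. In each panel the DADA libraries lie above the DMSO libraries, from 2.66 to 2.96 FPKM for *Parp12* up to 46.6 to 49.9 FPKM for *Parp9*.

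**Figure D2:**
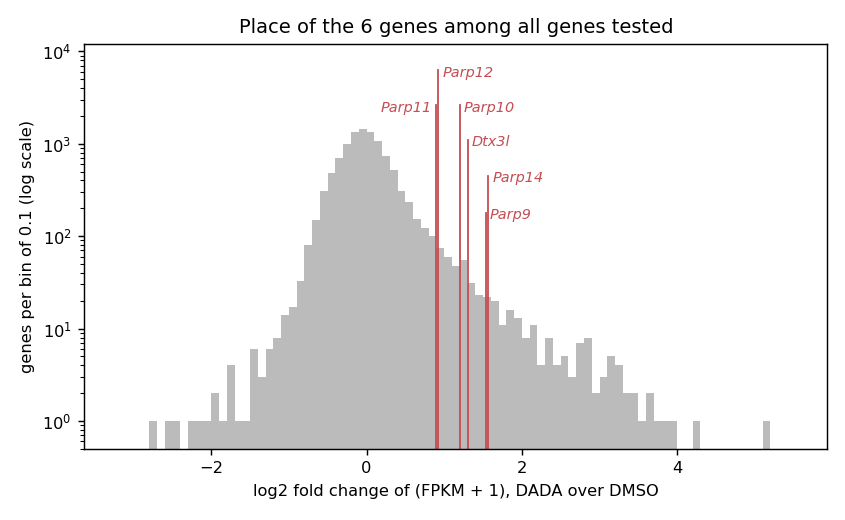
Histogram of the log2 fold change of (FPKM + 1), DADA over DMSO, for the 10666 genes tested (horizontal axis in bins of 0.1; vertical axis, genes per bin, log scale), with red lines at the 6 genes. The genes lie on the upper flank, between 0.89 for *Parp11* and 1.57 for *Parp14*.

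*Parp9* (ENSMUSG00000022906) encodes the macrodomain protein that joins with DTX3L and is known to strengthen interferon responses. It was the most abundant of the 6 genes in each library. It was measured at 15.8, 16.3, 16.4 and 15.4 FPKM in DMSO 1 to 4, as the libraries are numbered by their titles, and at 46.6, 49.9, 48.8 and 47.5 FPKM in DADA 1 to 4. The values within a group differed little beside the distance between the groups, with coefficients of variation of 2.90% with DMSO and 3.03% with DADA. At the estimated depth, counting of fragments alone would give up to 3.5% with DMSO and 1.9% with DADA. The mean level with DADA was 3.02 times that with DMSO (standard error 0.0633), and the log2 fold change was 1.54 (95% interval 1.47 to 1.61, limma, adjusted p = 1.07e-10).

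*Dtx3l* (ENSMUSG00000049502) encodes the E3 ubiquitin ligase of this pair. DMSO 1 to 4 held 12.3, 13.0, 13.5 and 12.2 FPKM, against 33.2, 32.0, 33.2 and 33.5 FPKM in DADA 1 to 4. All DADA values were thus above 30 FPKM and all DMSO values below 14 FPKM. The ratio of means was 2.59 (standard error 0.0689), and the log2 fold change was 1.31 (95% interval 1.23 to 1.39, limma, adjusted p = 1.03e-09).

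*Parp14* (ENSMUSG00000034422) encodes a large mono-ADP-ribosyltransferase with macrodomains, known as a cofactor of STAT6 in the response to IL-4. DMSO 1 to 4 held 8.85, 8.49, 8.91 and 8.79 FPKM, against 28.2, 26.6, 28.9 and 28.0 FPKM in DADA 1 to 4. It had the largest increase of the 6 genes, with a ratio of means of 3.19 (standard error 0.0649) and a log2 fold change of 1.57 (95% interval 1.49 to 1.64, limma, adjusted p = 1.48e-10). The intervals of *Parp14* and *Parp9* overlapped. Of the other genes in a list for the IL-4 axis, *Stat6* itself had nearly the same level in control (49.2 ± 1.51 FPKM) and treated cells (48.6 ± 1.23 FPKM, SD, n = 4), and its log2 fold change of -0.02 was not called (95% interval -0.09 to 0.05, limma, adjusted p = 0.577). *Il4ra*, a chain of the IL-4 receptor, was 1.26 times as high with DADA and *Gata3*, a transcription factor downstream of IL-4, 0.502 times, with both called. *Il4* did not reach 1 FPKM in any library.

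These last 3 genes, *Parp14*, *Dtx3l* and *Parp9*, follow one another on mouse chromosome 16 with no other protein-coding gene between them in the RefSeq annotation, while *Parp11* and *Parp12* are on chromosome 6 and *Parp10* is on chromosome 15. The protein-coding genes on both sides of the 3 did not rise. *Kpna1*, an importin gene next to *Parp9*, fell from 24.1 ± 0.504 to 21.9 ± 0.780 FPKM (SD, n = 4; log2 fold change -0.13, limma, adjusted p = 0.00432). *Hspbap1*, next to *Parp14*, was at 8.64 ± 1.14 FPKM in control cells and 7.02 ± 0.509 FPKM in treated cells (log2 fold change -0.26, limma, adjusted p = 0.0177), with overlapping values and a call that was lost without DADA 4 (adjusted p = 0.0512). *Dtx3l* and *Parp9* lie head to head on opposite strands and their annotated starts overlap. Whether fragments were assigned by strand is not given in the sources used here, so fragments from that overlap cannot be told apart.

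Although these 3 neighbours rose together, they did not rise by the same factor. The ratio of *Dtx3l* to *Parp9* within a library was 0.778, 0.798, 0.824 and 0.791 with DMSO and 0.712, 0.641, 0.680 and 0.706 with DADA. *Dtx3l* thus fell behind its partner in each DADA library, with a log2 difference of the ratio of -0.22 (standard error 0.0386, exact permutation test, p = 0.0286, the smallest possible with 4 against 4 libraries). The ratio of *Parp14* to *Dtx3l* moved the other way, from 0.689 ± 0.0374 to 0.847 ± 0.0182 (SD, n = 4), a log2 difference of 0.30 (standard error 0.0421, exact permutation test, p = 0.0286). The ratio of *Parp14* to *Parp9* was 0.550 ± 0.0219 with DMSO and 0.580 ± 0.0318 with DADA, and the groups overlapped (log2 difference 0.08, standard error 0.0497, exact permutation test, p = 0.171). Adjusted over these 3 ratios, the p-values were 0.0429, 0.0429 and 0.171. The ratios share genes, and *Parp14* to *Parp9* is the product of the others, so the tests are not independent. A ratio within a library shows unequal change and not which of the genes changed. Each ratio also includes *Dtx3l* or *Parp9*, whose fragments from the overlap of their starts cannot be told apart. The part of that overlap in the ratios was not tested.

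**Figure D3:**
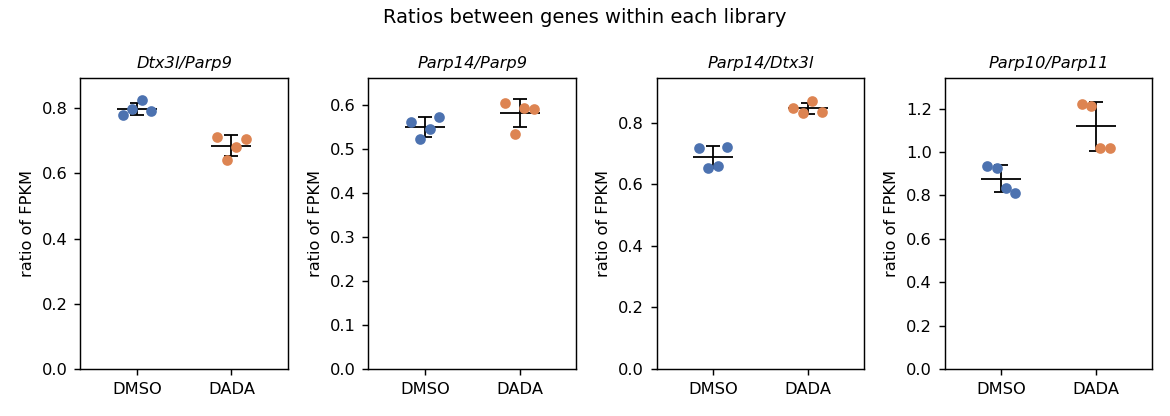
Ratios of FPKM between pairs of the genes within each library (vertical axes, from 0), for the 4 DMSO (blue) and 4 DADA (orange) libraries, with the mean and SD in black. *Dtx3l*/*Parp9* is lower in each DADA library, *Parp14*/*Dtx3l* and *Parp10*/*Parp11* are higher, and *Parp14*/*Parp9* overlaps between the groups.

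The RefSeq table of promoter windows (GRCm38.p6, 250 bases before to 50 after an annotated start) was matched by symbol and held 3 of the 6 genes, *Dtx3l*, *Parp11* and *Parp12*. *Parp9*, *Parp10* and *Parp14* have no entry. The FPKM values rest on another build, so the windows were used only as sequence. The *Dtx3l* window is shown because it lies at the head-to-head boundary with *Parp9*. It is at chr16:35938978-35939277 on the minus strand, was written 5′ to 3′ along *Dtx3l*, and held no match to GAAA, any 2 bases and GAAA again, the core of an ISRE, or to TTCNNNGAA, a gamma-activated site (GAS) bound by STAT dimers, on either strand, hence no capitals.
Dtx3l: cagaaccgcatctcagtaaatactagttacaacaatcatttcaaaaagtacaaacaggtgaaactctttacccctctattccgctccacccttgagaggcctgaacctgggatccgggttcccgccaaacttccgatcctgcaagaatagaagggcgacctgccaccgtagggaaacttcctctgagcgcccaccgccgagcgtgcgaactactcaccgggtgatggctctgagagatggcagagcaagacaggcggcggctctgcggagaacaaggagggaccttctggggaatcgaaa

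*Parp10* (ENSMUSG00000063268) encodes a mono-ADP-ribosyltransferase with RNA recognition motifs. DMSO 1 to 4 held 5.79, 5.61, 5.92 and 5.99 FPKM, against 15.3, 14.6, 14.4 and 14.6 FPKM in DADA 1 to 4. Its replicates were tight in both groups, with coefficients of variation of 2.90% with DMSO and 2.46% with DADA. At the estimated depth, counting of fragments alone would give up to 6.0% with DMSO and 3.6% with DADA. The observed spread was below these values, and the reason was not tested. The ratio of means was 2.53 (standard error 0.0481), and the log2 fold change was 1.2 (95% interval 1.12 to 1.28, limma, adjusted p = 1.50e-09).

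*Parp11* (ENSMUSG00000037997) encodes a mono-ADP-ribosyltransferase that is known to modify the ubiquitin ligase β-TrCP and thereby to promote loss of the interferon receptor chain IFNAR1. DMSO 1 to 4 held 6.18, 6.07, 7.10 and 7.37 FPKM, against 12.5, 12.1, 14.2 and 14.4 FPKM in DADA 1 to 4. In both groups, libraries 1 and 2 were below libraries 3 and 4, and the spread was wide for this level, with coefficients of variation of 9.79% with DMSO and 8.70% with DADA. The groups remained apart, since the highest DMSO value was 7.37 FPKM and the lowest DADA value 12.1 FPKM. *Parp11* had the smallest ratio of means of the 6 genes, 1.99 (standard error 0.130), and a log2 fold change of 0.89 (95% interval 0.73 to 1.06, limma, adjusted p = 2.53e-06).

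*Parp10* and *Parp11* changed places between the groups. *Parp11* was above *Parp10* in 4 of 4 DMSO libraries and below it in 4 of 4 DADA libraries, and the ratio of *Parp10* to *Parp11* was 0.937, 0.924, 0.834 and 0.812 with DMSO and 1.22, 1.21, 1.02 and 1.02 with DADA. In DADA 3 and DADA 4, at a ratio of 1.02, the gap was below the estimated counting error of 3.2% to 3.6% for each gene. This pair was singled out after its values were seen and was not tested. The order of the other genes was the same in both groups, with *Parp9* first, then *Dtx3l* and *Parp14*, and *Parp12* last, and neighbours in the order did not overlap within a group.

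RefSeq lists more than a single start for *Parp11*, and its 2 windows are shown because they differ in the motifs they hold. The window of the first start, on the plus strand at chr6:127446590-127446889, held an ISRE core as TTTCGATTTC, whose first base lies 44 bases before the start, and a GAS match that overlaps it by 3 bases, and both are in capitals. The window of the other start, at chr6:127453377-127453676, held neither. Of the 32851 windows in the table, 3.44% held an ISRE core and 8.30% a GAS match, on either strand. The *Parp12* window held neither and had a GC content of 73.7%, where the median over all windows was 52.7%. The FPKM table gives a single value per gene, so which *Parp11* start was used in these cells was not measured. A match is a run of letters and not evidence of binding, and a window without these letters says nothing on the factors.
Parp11, first start: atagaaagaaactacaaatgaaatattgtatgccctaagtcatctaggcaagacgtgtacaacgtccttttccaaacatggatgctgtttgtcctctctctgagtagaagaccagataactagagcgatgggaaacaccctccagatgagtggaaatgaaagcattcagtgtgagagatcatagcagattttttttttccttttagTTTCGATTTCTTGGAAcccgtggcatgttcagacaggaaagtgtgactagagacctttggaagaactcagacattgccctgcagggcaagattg
Parp11, other start: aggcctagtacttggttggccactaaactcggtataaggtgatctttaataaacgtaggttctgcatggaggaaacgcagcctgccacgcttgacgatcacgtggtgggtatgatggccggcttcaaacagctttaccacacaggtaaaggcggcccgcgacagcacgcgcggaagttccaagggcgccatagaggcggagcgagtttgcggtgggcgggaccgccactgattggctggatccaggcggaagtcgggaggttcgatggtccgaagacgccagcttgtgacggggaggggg

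*Parp12* (ENSMUSG00000038507) encodes a mono-ADP-ribosyltransferase with zinc fingers that is known to restrict several viruses. It was the least abundant of the 6 genes, at 1.08, 0.924, 1.12 and 0.912 FPKM in DMSO 1 to 4, against 2.75, 2.89, 2.66 and 2.96 FPKM in DADA 1 to 4. The DADA values were again all above the DMSO values, and the ratio of means was 2.79 (standard error 0.163). On the log2(FPKM + 1) scale its change was understated, at 0.92 (95% interval 0.79 to 1.06, limma, adjusted p = 4.38e-07), whereas a pseudocount of 0.1 gave 1.40. At the estimated depth and the longest annotated transcript of 3231 bases, these levels correspond to between 44 and 52 fragments in a DMSO library and between 132 and 179 in a DADA library. Counting error alone then gives a coefficient of variation of up to 15.1% with DMSO, and the observed value was 10.7%. The other 5 genes rested on at least 276 estimated fragments in each library.

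As shares of the summed level of the 6 genes, *Parp9* made up 31.3 ± 0.844% with DMSO and 34.5 ± 1.17% with DADA, and *Parp14* 17.2 ± 0.421% (SD, n = 4) and 19.3% to 20.4%. The shares of *Dtx3l*, at 25.0 ± 0.812% and 23.6 ± 0.363%, and of *Parp11*, at 13.1 ± 1.14% and 9.48 ± 0.700%, were lower with DADA in each library than in each DMSO library. *Parp10* made up 11.4 ± 0.336% with DMSO and 10.5 ± 0.367% with DADA, again without overlap, and *Parp12* made up 1.98 ± 0.189% and 2.01 ± 0.106%, with overlap. Within its group, DMSO 3 was the highest library for 4 of the 6 genes and DADA 4 for 3, and no library was the lowest for more than 3.

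The increase was not shared by the whole PARP family. Of the 11 other PARP genes, all of which were tested, 5 were called higher with DADA, 5 were called lower and 1 was not called, with a median log2 fold change of 0.02. Over all genes tested, 35.3% were called lower and 66.2% in either direction, and the groups did not overlap, with DADA lower, for 32.2%. *Parp1* and *Parp2*, the DNA damage-activated enzymes that build poly(ADP-ribose), fell from 59.5 ± 1.4 to 40.5 ± 0.781 FPKM and from 38.3 ± 0.879 to 30.0 ± 1.57 FPKM (SD, n = 4; log2 fold changes -0.54 and -0.34, limma, adjusted p = 4.84e-08 and 2.19e-05). *Parp8* had the largest fall, to 0.602 times the DMSO mean, and *Parp3* and *Parp4* fell to 0.773 and 0.858 times. The largest increases outside the 6 genes were those of *Tiparp* and *Parp16*. *Tiparp*, which encodes PARP7, a mono-ADP-ribosyltransferase induced by the aryl hydrocarbon receptor, rose from 2.40 ± 0.388 to 10.4 ± 0.213 FPKM (log2 fold change 1.75, limma, adjusted p = 2.05e-08). *Parp16*, whose product sits in the endoplasmic reticulum membrane, rose from 1.38 ± 0.231 to 6.06 ± 0.261 FPKM (log2 fold change 1.58, limma, adjusted p = 3.31e-08). As ratios of mean FPKM, *Tiparp* (4.34, standard error 0.354) and *Parp16* (4.41, standard error 0.382) were above each of the 6 genes, a difference that was not tested and that the log2(FPKM + 1) scale narrows for genes this low with DMSO.

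*Zc3hav1*, which encodes the antiviral zinc finger protein PARP13, was already at 73.0 ± 1.58 FPKM with DMSO and rose only 1.32-fold, to 96.5 ± 1.53 FPKM (SD, n = 4), above each of the 6 genes in either group. The tankyrase gene *Tnks* was 1.24 times as high with DADA, and *Tnks2* was not called, at 1.02 times (95% interval of the log2 fold change -0.04 to 0.09). *Parp6* was 1.72 times as high. Among the other Deltex ligases, *Dtx2* and *Dtx3* rose 1.59-fold and 1.46-fold, less than the 2.59-fold of *Dtx3l*, and their 95% intervals of the log2 fold change ended at 0.68 and 0.59, below that of *Dtx3l*. *Dtx1* and *Dtx4* did not reach 1 FPKM in any library and were not tested.

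**Figure D4:**
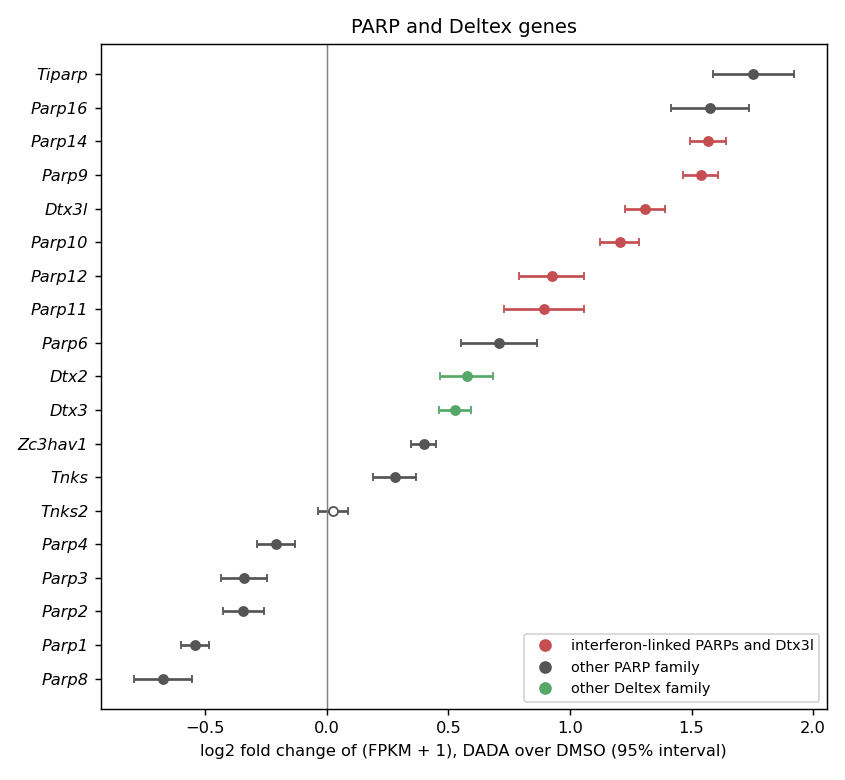
Log2 fold change of (FPKM + 1), DADA over DMSO, with 95% intervals from limma (horizontal axis), for the 6 genes (red), the 11 other PARP genes (grey) and the other Deltex genes tested (green); the open symbol marks the gene not called. *Tiparp* and *Parp16* stand beside *Parp14* and *Parp9* at the top, and *Parp1*, *Parp2*, *Parp3*, *Parp4* and *Parp8* lie below 0.

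Genes of the interferon pathway were described from a list, beside the 6 genes, which are commonly assigned to its targets. Of the 10 kinases and transcription factors, 7 were called higher and 3 lower with DADA, beside 30.9% and 35.3% of all genes tested, with a median log2 fold change of 0.20 beside -0.02. *Stat2* and *Irf9*, whose products act together at ISREs, both rose, *Stat2* from 11.9 ± 0.162 to 32.5 ± 0.576 FPKM and *Irf9* from 12.0 ± 0.742 to 29.8 ± 0.883 FPKM (SD, n = 4). The fold of *Stat2*, 2.73, and that of *Irf9*, 2.49, were within the 1.99 to 3.19 of the 6 genes. *Irf7*, a transcription factor of type I interferon genes, had the largest increase of the list, from 1.15 ± 0.0913 to 29.5 ± 0.433 FPKM. *Irf1*, *Irf3* and *Jak1* fell to 0.882, 0.882 and 0.893 times the DMSO mean, and *Jak2*, *Tyk2* and *Irf2* rose to 1.09, 1.15 and 1.17 times.

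Among the receptor chains, *Ifnar1* RNA fell from 41.4 ± 0.607 to 31.9 ± 0.993 FPKM and *Ifngr1* RNA rose from 71.3 ± 1.51 to 89.0 ± 0.716 FPKM (SD, n = 4). *Ifnar2* was at 22.9 ± 0.832 and 21.8 ± 1.42 FPKM (limma, adjusted p = 0.215), and was called, as lower, only without DADA 2 (adjusted p = 0.0239). Of the 21 interferon genes, *Ifng* alone passed the filter, rising from 404 ± 20.1 to 649 ± 8.54 FPKM. *Ifnb1* was listed at 0 in each control library, whereas DADA 1 to 4 held 0.536, 0.412, 0.326 and 0.133 FPKM. *Ifna2* and *Ifna4* were likewise listed at 0 in each DMSO library, and were at 0.310 to 0.867 FPKM and 0.421 to 1.10 FPKM with DADA. Fragments were not estimated for these low values, and most DADA libraries had a higher estimated depth than any DMSO library. The exception was DADA 3, at 15360000 estimated fragments against 16210000 in DMSO 2. The part of depth in these values was not tested. Near-identical copies among the *Ifna* genes make the values of *Ifna2* and *Ifna4* uncertain, and 11 of the 21 genes were listed at 0 in all 8 libraries. The part of these genes, and of the myeloid and dendritic cell markers given above, in the increase of the 6 genes was not tested.

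PARP enzymes depend on NAD. Of the 9 NAD synthesis genes tested, 3 were called higher and 2 lower, counts close to or below the 30.9% and 35.3% of all genes (median log2 fold change -0.01). *Nampt*, the rate-limiting enzyme of NAD salvage from nicotinamide, rose from 30.3 ± 1.01 to 58.0 ± 1.27 FPKM and *Nmrk1*, nicotinamide riboside kinase, from 11.8 ± 0.618 to 21.3 ± 1.95 FPKM (SD, n = 4), while *Nadk*, which phosphorylates NAD, fell from 60.4 ± 1.24 to 46.2 ± 2.08 FPKM. *Nadsyn1* was at 0.779 times the DMSO mean and called. *Qprt*, near 1 FPKM, was 1.5 times as high, a call that was lost with quantile normalization (limma, adjusted p = 0.265). Of the 10 other NAD consumers tested, 3 were called, all higher, *Bst1* (from 0.470 ± 0.0825 to 2.71 ± 0.317 FPKM), *Sirt6* (1.6-fold) and *Sirt2* (1.34-fold). *Bst1* met the filter on low values only through the 4 DADA libraries, and *Qprt* in 6 libraries, 2 of them DMSO libraries, so the counts of these lists include genes selected in part for a high level with DADA. The Bst1 log2 fold change was 1.33, and 2.31 with a pseudocount of 0.1. *Cd38*, a major NAD-degrading ectoenzyme, was at 2.37 ± 0.294 and 2.49 ± 0.189 FPKM, with a log2 fold change of 0.05 (95% interval -0.11 to 0.22) whose sign turned without DMSO 3 and with quantile normalization.

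Of the 10 tested genes whose products remove or read ADP-ribose, 1 was called higher and 5 lower, beside 30.9% and 35.3% of all genes tested, with a median log2 fold change of -0.11. *Parg*, the poly(ADP-ribose) glycohydrolase, fell to 0.858 times the DMSO mean, *Adprs*, which cleaves ADP-ribose from serine, to 0.814 times, and *Oard1*, which cleaves it from glutamate and aspartate, to 0.887 times. *Chd1l*, a chromatin remodeller with a macrodomain, fell to 0.696 times, and the macrodomain histone gene *Macroh2a1* rose 1.16-fold. *Pwp1*, at 0.610 times, is better known for ribosome biogenesis, and without it the counts were 1 higher and 4 lower of 9.

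**Figure D5:**
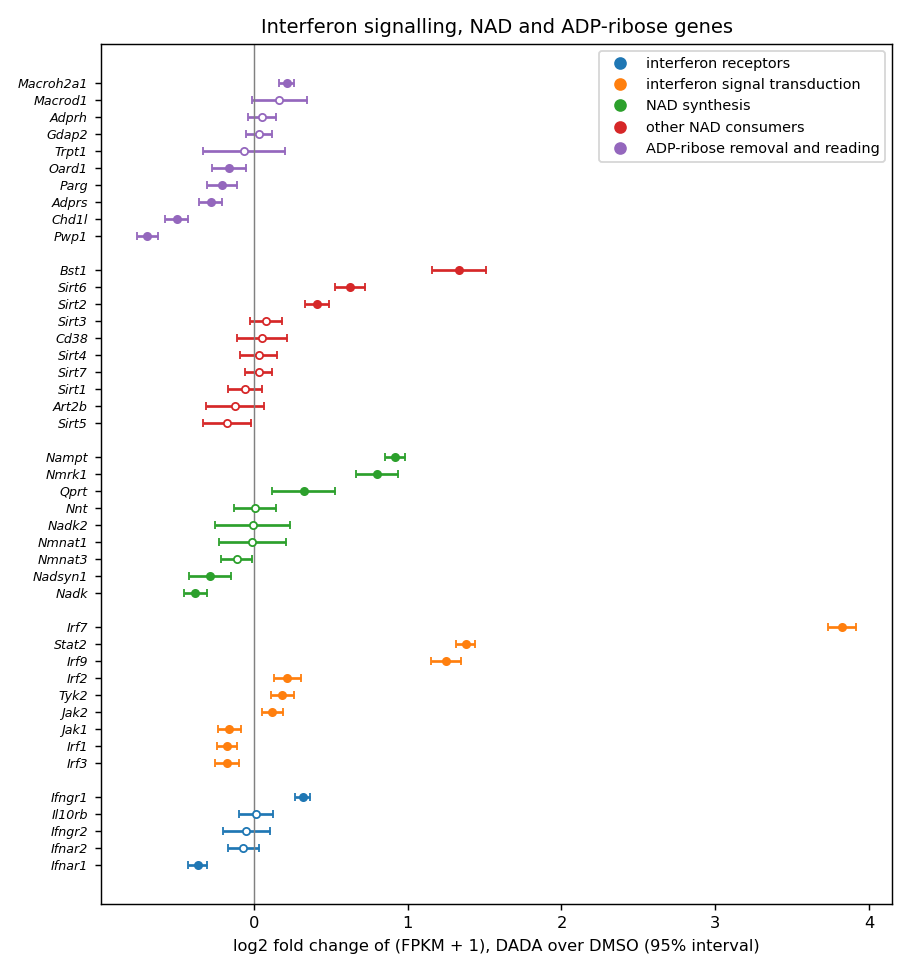
Log2 fold change of (FPKM + 1), DADA over DMSO, with 95% intervals from limma (horizontal axis), for genes of 5 lists; filled symbols mark genes called at an adjusted p-value under 0.05 and open symbols the others. *Irf7* lies farthest to the right at 3.83, *Stat2* and *Irf9* lie at 1.38 and 1.25, and the genes that remove or read ADP-ribose lie between -0.69 and 0.21.

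For each of the 6 genes, the genes nearest in profile were found among 8188 genes whose mean over the libraries reached 5 FPKM, as the Euclidean distance between log2(FPKM + 1) values over the 8 libraries, each gene centred on its mean. They were *Trim25*, *Ccl4* and *Ccl3* for *Parp9* (distances of 0.120 to 0.154), *Trim12c* and *Pfkl* for *Dtx3l* (0.117 and 0.139), and *Sema4f*, *Rnf213* and *9930111J21Rik2* for *Parp14* (0.103 to 0.146). For *Parp10* they were *Galnt6*, *Gzmb* and *P4hb* (0.0813 to 0.107), for *Parp11* *Itgb3*, *Pmaip1* and *Ifi47* (0.175 to 0.188), and for *Parp12* *Map2k1*, *Nlgn2* and *Traf1* (0.141 to 0.144). Pearson correlations with these genes over the 8 libraries were at least 0.990, over points that share their libraries and the difference between the 2 groups. None of the other 5 genes was among the nearest of another, and *Parp12*, below 5 FPKM, was not a candidate.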

How the data were processed

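For each gene, the table that the authors deposited holds FPKM in 8 libraries of mouse CD8+ T cells sequenced as paired reads of 150 bp. The submitters' processing notes name HISAT2 2.0.5, StringTie 1.3.3, SAMtools 0.1.18, Picard 1.41, FastQC 0.11.9 and CASAVA 1.8.2 and the builds GRCm39 and GRCh38, without roles. The labels and the methods name different library kits, and the strand setting is not given in the sources used here. Gene coordinates are not given, since the annotation at hand is of another build.

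Libraries were grouped by their titles. The test used log2(FPKM + 1) of the 10666 genes at 1 FPKM or more in at least 4 libraries, with limma 3.58.1 in R 4.3.3 (eBayes with trend, Benjamini-Hochberg over all genes tested, threshold 0.05), tested on simulated data. Single values were tested by exact permutation (two-sided, 70 assignments). FPKM carries no read counts, so no count test was run. Depth was estimated from the steps between low values of 4431 genes with a single transcript in GENCODE M21. Between 495 and 572 values in a library were low enough, and above 0, to be used. Of these, without the very smallest, 29.7% to 44.1% in a library lay within 0.1 of a whole fragment, where 20% would by chance. The depth was searched within a fixed range that cannot return a whole multiple of a depth within it. A depth above the range could not be returned either. The fragments would then be understated and the counting errors overstated. The minimum sequencing volume per sample that the paper states was not compared with the estimate. It was also chosen for this agreement on the same values, so the 20% is a low baseline. The estimated depth is therefore approximate, and counting errors cover counting only.

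The 6 genes, the gene lists and the tests were chosen with earlier results of these data known. Named were the 6 genes, their neighbours, list genes past the filter, and the 3 genes nearest in profile to each. A few genes that this rule takes in are not reported here, while list counts include all members. Figures were drawn with matplotlib 3.10.9 from Python 3.11.15.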

Additional observations from a re-analysis of the deposited data

Results flagged for a closer look

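In groups of 4 libraries, 7 of 164 groups had a library whose gap to the nearest of the others as a share of the range of the group exceeded Dixon's 95% critical value. Chance gives this in about 1 of 20 groups, and none of the 7 concerned the 6 genes, their ratios or their sum. With DADA, these were *Chd1l* (ratio 0.870, DADA 4 at 19.9 FPKM), *Cd3d* (0.897, DADA 3 at 114 FPKM), *Rnf213* (0.932, DADA 2 at 23.6 FPKM) and *Cd38* (0.900, DADA 3 at 2.77 FPKM). With DMSO, they were *Tyk2* (0.887, DMSO 3 at 16.6 FPKM), *Irf3* (0.854, DMSO 4 at 27.0 FPKM) and *Cd8b1* (0.838, DMSO 4 at 146 FPKM).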

How the results depend on the processing

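The 6 genes kept their direction and an adjusted p-value under 0.05 (limma) in each of the 17 alternatives, or 16 for *Parp12*, which a mean of at least 5 FPKM leaves out. Left out in turn, the libraries moved the log2 fold changes to 1.52 to 1.55 (*Parp9*), 1.29 to 1.33 (*Dtx3l*), 1.55 to 1.59 (*Parp14*), 1.19 to 1.22 (*Parp10*), 0.86 to 0.94 (*Parp11*) and 0.90 to 0.95 (*Parp12*). Other settings moved *Parp12* most, to 0.76 with quantile normalization and 1.40 with a pseudocount of 0.1. The count of all genes called was 7064, and 5741 to 7868 under the alternatives. With the replicate block it was 6995. Deviations of libraries with the same number correlated between -0.12 and 0.10 across genes, so no pairing by number was seen. Such correlations cannot exclude shared mice or batches, which the sources do not give. The block changed no call of the 6 genes. The fit without assembled transcripts, chosen after seeing the data, called 7020. With 1 library left out, the smallest possible exact p for a ratio is 0.0571, and the differences were -0.24 to -0.19 for the log2 ratio Dtx3l/Parp9 and 0.27 to 0.32 for the log2 ratio Parp14/Dtx3l. Sign changes were seen for the Cd38 log2 fold change (-0.0721 with quantile normalization, -0.0061 to 0.0937 with 1 library left out, the lowest without DMSO 3) and that of *Stat6* (0.0121 rescaled to the same total, 0.0156 with quantile normalization), neither of them called. Of 1218 values of 72 other genes examined, 1203 kept direction and side of the threshold. Of the 6 genes, *Parp12* had the fewest estimated fragments. The cause of these shifts was not tested.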
